A study of Mus musculus with 8 samples.

Results

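The 9 genes described here encode the early growth response transcription factors EGR1, EGR2 and EGR3, the EGR-binding corepressors NAB1 and NAB2, the immediate early response proteins IER2, IER3 and IER5, and serum response factor (SRF). They were found by symbol among the 41709 rows of the transcript abundance table of mouse muscle. *Egr2* and *Egr3* were chosen by their lower abundance in the comparison reported here, so their values are a description without a test, and counts are given over the other 7 genes. All 9 genes were at 1 TPM (transcript abundance scaled to library and gene length) or more in all 8 muscles.

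EGR proteins are zinc-finger transcription factors that bind GC-rich sites, and their genes are induced within minutes by growth factors, stretch, contraction, injury or inflammatory signals. SRF is a MADS-box factor that binds CArG boxes. Together with ternary complex factors (ELK1, ELK3, ELK4), which are phosphorylated by ERK, it drives immediate-early genes, and together with myocardin-related factors it drives actin and other cytoskeletal genes. NAB1 and NAB2 bind EGR1, EGR2 and EGR3 and repress their activity, and *Nab2* is itself an EGR target, which closes a feedback loop. In muscle tissue, EGR3 is known for the development of muscle spindles and EGR2 for myelination by the Schwann cells of the nerve, while SRF maintains the contractile genes of the fibre.

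The tibialis anterior (TA) muscles came from 3-month-old male C57BL/6J mice and were collected 7 days after siRNAs were electroporated into them. The 4 muscles of the *Uba1* siRNA group received a SMARTpool, a mixture of siRNAs against *Uba1*, which encodes the ubiquitin-activating enzyme UBA1. The 4 contralateral muscles received non-targeting (NT) siRNAs, and they too had been pretreated with hyaluronidase and electroporated. Muscles with the same replicate number are the legs of the same mouse. The labels mark every muscle with NT siRNAs as R and every muscle with *Uba1* siRNAs as L, so the effects of leg and siRNA cannot be told apart. In the treatment tags replicate 1 carries UBA1, but replicates 2, 3 and 4 carry UBA2, UBA3 and UBA4. The titles and descriptions name UBA1 throughout, and the muscles were grouped by the descriptions.

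Stretches before the transcription starts of *Egr2*, *Srf* and *Ier3* are shown because they hold binding motifs of factors named here: the CArG box before *Egr2*, the CArG boxes and EGR site before *Srf*, and the NF-kB site before *Ier3*. Each is 120 bases long, overlaps no annotated exon of its own gene, and was cut from the RefSeq promoter windows of GRCm38.p6, which reach 250 bases before and 50 bases after a start. The window that holds each stretch matched its chromosome in GRCm39 exactly once, and the coordinates are those of GRCm39. The *Egr2* stretch lies at chr10:67373572-67373691 on the plus strand, -127 to -8 from its start site. This is an alternative start within the annotated gene, which begins upstream at 67371305, and an exon of the predicted gene *Gm66196* overlaps the stretch. The *Srf* stretch lies at chr17:46867120-46867239 on the minus strand, -151 to -32 from the start site. The *Ier3* stretch lies at chr17:36132448-36132567 on the plus strand, -157 to -38 from the start site. Capitals mark the CArG box in *Egr2*, the EGR site followed by both CArG boxes in *Srf*, and the NF-kB site in *Ier3*.
*Egr2*: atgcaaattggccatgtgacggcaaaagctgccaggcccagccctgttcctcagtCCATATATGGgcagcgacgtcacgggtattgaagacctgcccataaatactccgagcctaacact
*Srf*: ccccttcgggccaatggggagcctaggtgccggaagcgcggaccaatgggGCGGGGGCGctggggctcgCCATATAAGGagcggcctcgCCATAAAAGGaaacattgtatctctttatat
*Ier3*: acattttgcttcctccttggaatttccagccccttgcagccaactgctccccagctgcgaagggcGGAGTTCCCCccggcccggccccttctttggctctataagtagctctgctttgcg

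Of the 9 genes, 6 had an entry among the promoter windows (*Egr2*, *Nab1*, *Nab2*, *Ier3*, *Ier5* and *Srf*), and *Egr1*, *Egr3* and *Ier2* did not. *Egr2* had 5 windows for alternative starts and each of the other 5 genes had 1. The 32851 windows of 27025 genes were searched on both strands. A CArG box was found before 2 of the 6 genes, *Egr2* (4 of 5 windows) and *Srf*, and before 1.81% of all genes (1.63% of windows). The EGR site (GCGTGGGCG or GCGGGGGCG) was found before *Nab1* and *Srf* and before 3.93% of all genes (3.47% of windows). *Nab1* held 3 EGR sites, at -141 to -133, -109 to -101 and -38 to -30 from its start, and *Srf* held 1, at -101 to -93. The CArG boxes of *Srf* lay at -82 to -73 and -62 to -53. An NF-kB site was found before *Egr2*, *Nab1* and *Ier3*, and before 9.55% of all genes (8.46% of windows). A TATA box (TATAAA) was found before *Srf* and before 15.7% of all genes (13.6% of windows). The cAMP response element (TGACGTCA, before 2.03% of all genes and in 1.79% of windows) and the ETS site (CCGGAAGT, 4.31% and 3.89%) were found before none of the 6 genes. Of 33 other immediate-early genes with an entry, 8 held the EGR site, 8 a TATA box, 6 an NF-kB site, 4 the cAMP response element, 2 a CArG box and 0 the ETS site. The windows of *Egr2* that hold CCATATATGG overlap and share that box, while a window that does not overlap them holds a different CArG box, CCTTTTTTGG. Matches of these short motifs are a description of the sequence.

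**Figure D1:**
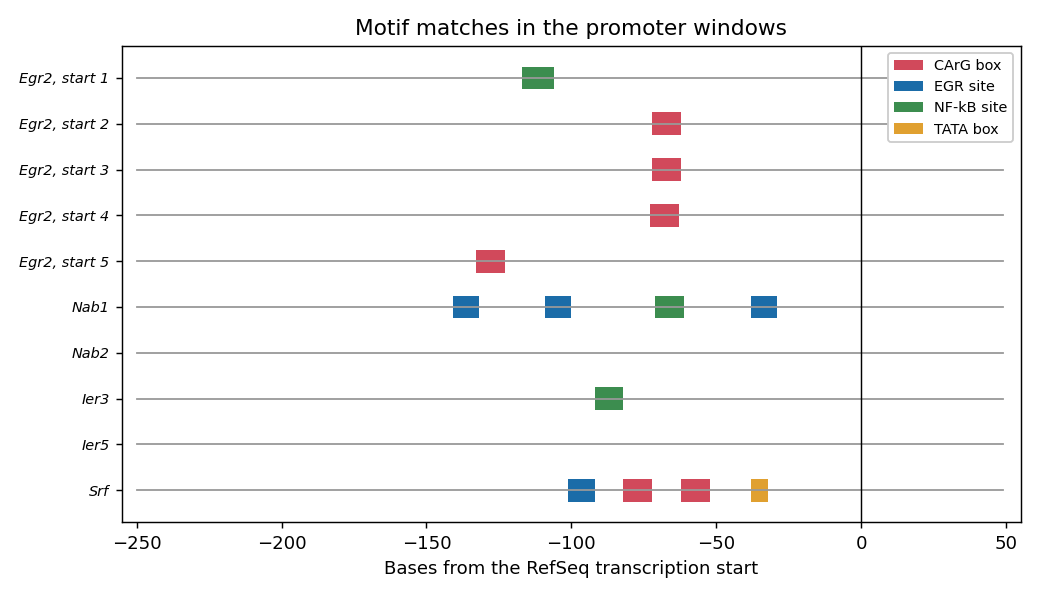
Positions of motif matches, on either strand, in the promoter windows of the 6 genes with an entry. The horizontal axis is the distance in bases from the RefSeq transcription start, each row is a window (*Egr2* has 5), and coloured boxes mark the motifs. *Srf* and *Egr2* hold CArG boxes, *Nab1* and *Srf* hold EGR sites, and *Nab2* and *Ier5* hold none of the motifs searched.

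*Uba1*, the targeted gene (chromosome X, 20524493 to 20549418, GRCm39), was at 60.64, 59.03, 63.55 and 59.14 TPM in NT replicates 1 to 4, and at 18.08, 6.768, 15.76 and 23.11 TPM with *Uba1* siRNAs. It was lower in 4 of 4 pairs, with a log2 fold change (log2FC) of -1.98 (standard error, SE, 0.290, limma adjusted p = 0.0527 by the Benjamini-Hochberg method). It passed in 8 of 16 alternatives, with the replicate block among them (limma adjusted p = 0.0278, within a range of 0.00257 to 0.23). All log2FC are differences of log2(TPM + 1), *Uba1* siRNAs minus NT siRNAs, a scale on which low-TPM genes appear to change less. The median log2FC of the 11530 genes tested was 0.11. It moved to 0.01 with quantile normalization and to 0.00159 with median-ratio scaling, which divides each muscle by the median of its ratios to the mean muscle. At an unadjusted p under 0.05, 228 genes were lower and 1844 higher (16% of all genes tested), whereas with median-ratio scaling 712 were lower and 510 higher. The scaling factors were above 1 in *Uba1* replicates 1 and 3, at 1.12 and 1.11, and between 0.944 and 0.988 in the other muscles. Mitochondrial transcripts took 42.1 to 45.7% of the TPM with NT siRNAs and 39.9 to 50.3% with *Uba1* siRNAs. Muscle fibre mRNAs were abundant in both groups: *Ckm*, muscle creatine kinase, averaged 13838 and 13446 TPM.

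Across the 7 genes other than *Egr2* and *Egr3*, 6 had a lower mean on the log2 scale with *Uba1* siRNAs, but none passed the test. Of all genes tested, 18.2% were lower (49.3% with median-ratio scaling). The 7 genes were also chosen with earlier results of these data known, so their counts against all genes are a description. At an adjusted p of 0.05, 0 of 7 genes passed (limma), against 0.026% of all genes tested that passed toward lower values. With the replicate block the count was again 0 of 7, against 0.304% of all genes. At an unadjusted p under 0.05, 3 of 7 genes were lower (*Nab2*, *Ier5* and *Srf*), against 1.98% of all genes. With a log2FC under -0.58 required as well, only *Ier5* of the 7 remained, against 0.833% of all genes. With the replicate block *Egr1*, *Nab2*, *Ier5* and *Srf* were lower at an unadjusted p under 0.05 (limma), as were 323 of all 11530 genes. By the exact Kruskal-Wallis test, 0 of 7 passed at an unadjusted p under 0.05, against 11.6% of all genes in either direction. With 4 muscles per group only groups without overlap can pass this test, so it adds nothing to the overlap itself. The groups overlapped for all 7 genes, whereas 1.01% of all genes tested were lower without overlap. *Ier5* and *Srf* were lower in all 4 pairs, as were 2.98% of all genes. The median log2FC was -0.25 over the 7 genes, against 0.11 for all genes tested, and with median-ratio scaling it was -0.37. With each muscle left out, the median of the 7 genes ranged from -0.36 to -0.16, the latter without NT replicate 2.

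**Figure D2:**
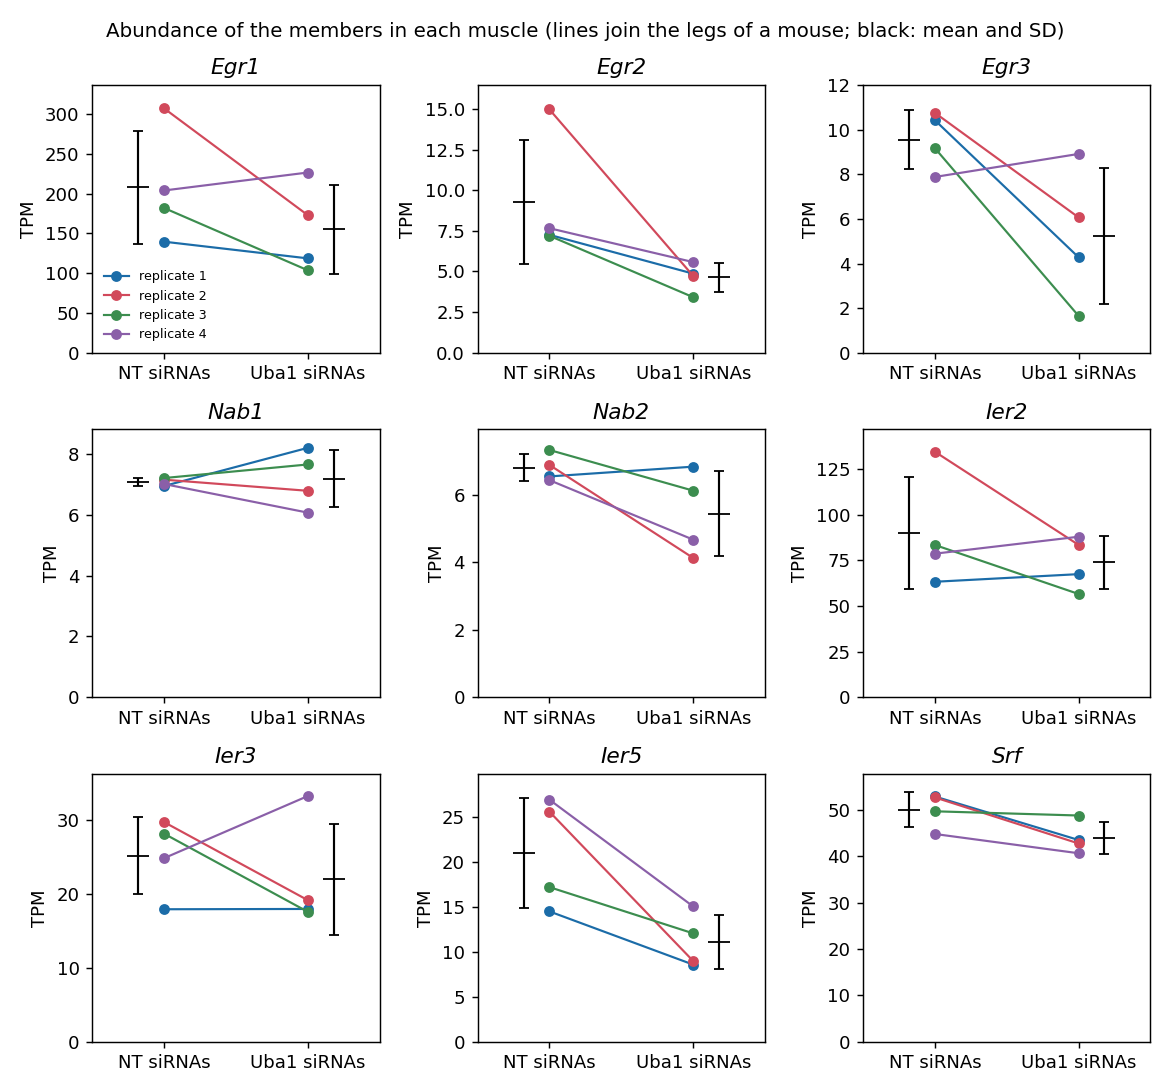
TPM of each gene in the 8 muscles, with a separate vertical axis from 0 for each gene. Coloured points are muscles, lines join the legs of a mouse, and black bars give the mean and SD of 4 muscles. *Egr2* is lower with *Uba1* siRNAs without overlap, *Ier5* and *Srf* are lower in every mouse, and *Nab1* lies near 7 TPM in both groups.

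*Egr1* (chromosome 18, 34992876 to 34998049, plus strand) encodes the founding member of the EGR family and was the most abundant of the 9 mRNAs. It was at 139.6, 307.3, 182 and 204 TPM in NT replicates 1 to 4 and at 118.6, 172.9, 103.6 and 226.6 TPM with *Uba1* siRNAs. The groups overlapped, and *Egr1* was lower with *Uba1* siRNAs in replicates 1 to 3 but higher in replicate 4. The means were 208 ± 71.2 and 155 ± 56 TPM (SD, n = 4 muscles each). The log2FC was -0.43 (SE 0.284, 95% confidence interval -1.07 to 0.21, limma adjusted p = 0.42), and the exact permutation test gave p = 0.257 (two-sided). With the replicate block the unadjusted p was 0.0338 and the adjusted p 0.17 (limma), the lowest over its alternatives, which reached 0.729. The log2FC was -0.63 without *Uba1* replicate 4 and -0.22 without NT replicate 2, the muscle with the most *Egr1*.

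*Egr2* (chromosome 10, 67371305 to 67378018, plus strand), also called Krox20, was at 7.258, 14.98, 7.198 and 7.665 TPM in NT replicates 1 to 4. With *Uba1* siRNAs it was at 4.866, 4.724, 3.416 and 5.577 TPM. Its groups did not overlap, as was the case toward lower values for 1.01% of all genes tested, and *Egr2* was chosen for this fall. The means were 9.27 ± 3.81 and 4.65 ± 0.901 TPM (SD, n = 4 muscles each), a ratio of 0.501, with a log2FC of -0.82 (SE 0.219). The differences between the legs in replicates 1 to 4 were -0.49, -1.48, -0.89 and -0.40 on the log2 scale, and the widest belongs to replicate 2, whose NT muscle stood far above the other NT muscles. Without that NT muscle the log2FC was -0.58.

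*Egr3* (chromosome 14, 70314350 to 70320063, plus strand) was at 10.43, 10.76, 9.176 and 7.882 TPM in NT replicates 1 to 4 and at 4.276, 6.067, 1.647 and 8.916 TPM with *Uba1* siRNAs. The NT muscles lay close together, while the muscles with *Uba1* siRNAs spread from 1.65 to 8.92 TPM and reached into the NT range in replicate 4. The means were 9.56 ± 1.31 and 5.23 ± 3.06 TPM (SD, n = 4 muscles each), a ratio of 0.547, with a log2FC of -0.91 (SE 0.339). The size of this difference rested on single muscles, since the log2FC was -0.55 without *Uba1* replicate 3 and -1.18 without *Uba1* replicate 4.

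TPM are values per transcript length, so the EGR mRNAs can be set beside each other. *Egr1* held 88.8 to 92.9% of the summed EGR TPM with NT siRNAs and 92.8 to 95.3% with *Uba1* siRNAs. In NT muscles *Egr1* was 19.2 to 26.6 times as abundant as *Egr2*, and in muscles with *Uba1* siRNAs 24.4 to 40.6 times. The ratio of *Egr1* to *Egr3* was 13.4 to 28.6 with NT siRNAs and 25.4 to 62.9 with *Uba1* siRNAs, where the top value came from replicate 3. Since *Egr2* and *Egr3* were chosen for lower values, these ratios are a description.

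Of the corepressor genes, *Nab1* (chromosome 1, 52494147 to 52539838, minus strand) was at 6.943, 7.151, 7.204 and 7.008 TPM in NT replicates 1 to 4 and at 8.198, 6.785, 7.651 and 6.067 TPM with *Uba1* siRNAs. Its means were 7.08 ± 0.121 and 7.18 ± 0.94 TPM (SD, n = 4 muscles each), and the legs differed in either direction, 2 of 4 pairs being lower. The log2FC was 0.01 (SE 0.0875, 95% confidence interval -0.19 to 0.21, limma adjusted p = 0.952), and it took the opposite sign with median-ratio scaling or quantile normalization (-0.10 with each). The NT muscles had a coefficient of variation of 1.72% and those with *Uba1* siRNAs 13.1%.

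*Nab2* (chromosome 10, 127496786 to 127504458, minus strand) was at 6.554, 6.895, 7.339 and 6.443 TPM in NT replicates 1 to 4 and at 6.844, 4.132, 6.131 and 4.676 TPM with *Uba1* siRNAs. It was lower in 3 of 4 pairs, and *Uba1* replicate 1 lay within the NT range. The means were 6.81 ± 0.403 and 5.45 ± 1.26 TPM (SD, n = 4 muscles each). The log2FC was -0.30 (SE 0.131, limma unadjusted p = 0.049 and adjusted p = 0.277), and the exact permutation test gave p = 0.0857 (two-sided). With the replicate block the unadjusted p was 0.0302 and the adjusted p 0.164 (limma). With each muscle left out the log2FC ranged from -0.40 to -0.19, the latter without *Uba1* replicate 2.

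The summed TPM of the EGR genes divided by that of the NAB genes was 11.7, 23.7, 13.6 and 16.3 in NT replicates 1 to 4. With *Uba1* siRNAs it was 8.49, 16.8, 7.88 and 22.4. The groups overlapped, and the ratio was lower in replicates 1, 2 and 3 and higher in replicate 4. The NAB sum itself ranged from 13.45 to 14.54 TPM with NT siRNAs and from 10.74 to 15.04 TPM with *Uba1* siRNAs, and *Egr1* made up most of the EGR sum.

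*Ier5* (chromosome 1, 154972107 to 154975382, minus strand), whose product regulates heat shock factor HSF1 through the phosphatase PP2A, showed the largest difference of the 7 genes. It was at 14.48, 25.57, 17.18 and 26.9 TPM in NT replicates 1 to 4 and at 8.564, 8.961, 12.04 and 15.03 TPM with *Uba1* siRNAs. It was lower in 4 of 4 pairs, with only *Uba1* replicate 4 reaching above the lowest NT muscle. The means were 21 ± 6.13 and 11.1 ± 3.02 TPM (SD, n = 4 muscles each), a ratio of 0.53. The log2FC was -0.85 (SE 0.225, 95% confidence interval -1.35 to -0.34, limma adjusted p = 0.161), and the exact permutation test gave p = 0.0571 (two-sided). With the replicate block the adjusted p was 0.0589 (limma). Its adjusted p ranged from 0.0414 to 0.361 over the 16 alternatives in which it was fitted, and it passed only with the replicate block and median-ratio scaling together.

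*Ier2* (chromosome 8, 85387960 to 85389483, minus strand), a nuclear protein of the same family, was at 63.23, 134.5, 83.4 and 78.62 TPM in NT replicates 1 to 4 and at 67.41, 83.42, 56.53 and 87.91 TPM with *Uba1* siRNAs. It was lower in 2 of 4 pairs, and NT replicate 2 was above all other muscles. The log2FC was -0.25 (SE 0.222, 95% confidence interval -0.75 to 0.25, limma adjusted p = 0.549) and -0.04 without NT replicate 2.

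*Ier3* (chromosome 17, 36132568 to 36133815, plus strand), also called IEX-1 and a known NF-kB target in survival signalling, was at 17.94, 29.75, 28.18 and 24.86 TPM in NT replicates 1 to 4. With *Uba1* siRNAs it was at 17.98, 19.17, 17.59 and 33.28 TPM. Its pairs went both ways, with the legs of replicate 1 nearly equal, replicates 2 and 3 lower and replicate 4 the highest of all muscles. The log2FC was -0.21 (SE 0.217, 95% confidence interval -0.70 to 0.28, limma adjusted p = 0.598). With each muscle left out it ranged from -0.42 without *Uba1* replicate 4 to -0.13 without NT replicate 2 or *Uba1* replicate 3.

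*Srf* (chromosome 17, 46857767 to 46867119, minus strand) was at 52.95, 52.75, 49.75 and 44.85 TPM in NT replicates 1 to 4 and at 43.55, 42.8, 48.84 and 40.69 TPM with *Uba1* siRNAs. It was lower in 4 of 4 pairs by 0.28, 0.30, 0.03 and 0.14 on the log2 scale, and only replicate 3 with *Uba1* siRNAs lay above the lowest NT muscle. The means were 50.1 ± 3.78 and 44 ± 3.46 TPM (SD, n = 4 muscles each), a ratio of 0.878. The log2FC was -0.18 (SE 0.0794, limma unadjusted p = 0.0452 and adjusted p = 0.267), or -0.30 with median-ratio scaling, and the exact permutation test gave p = 0.0571 (two-sided). With the replicate block the unadjusted p was 0.0354 and the adjusted p 0.173 (limma).

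**Figure D3:**
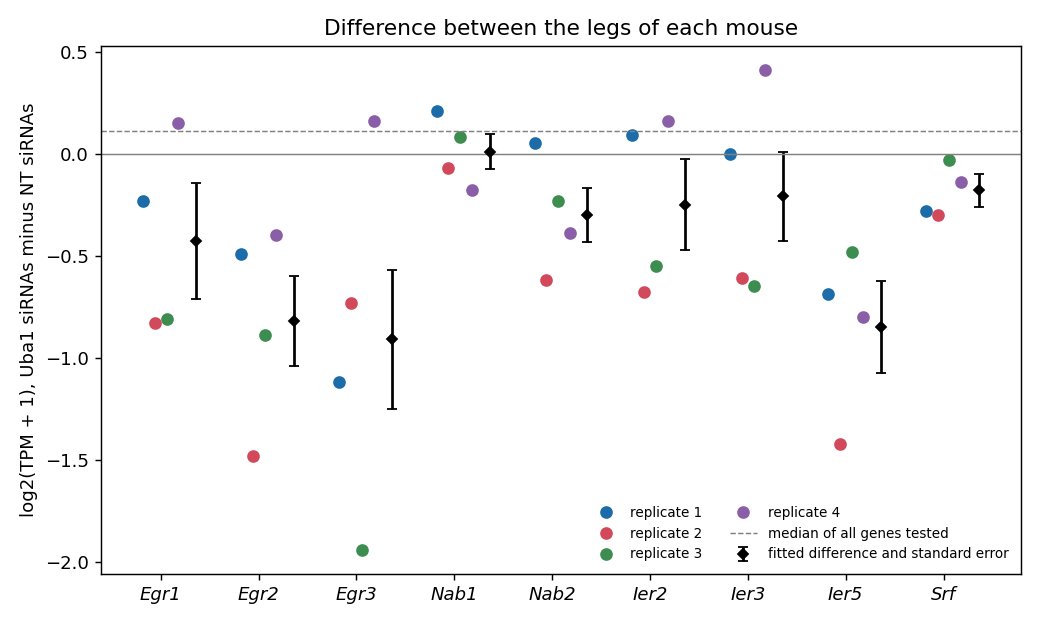
Difference of log2(TPM + 1) between the legs of each mouse (coloured points, *Uba1* siRNAs minus NT siRNAs) and the fitted log2FC with its standard error (black diamonds and bars) for the 9 genes. The dashed line is the median of all genes tested, 0.11. The 4 mice lie below 0 for *Egr2*, *Ier5* and *Srf*, and replicate 4 lies above 0 for *Egr1*, *Egr3*, *Ier2* and *Ier3*.

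The order of abundance was alike at the top of both groups. With NT siRNAs *Egr1* was followed by *Ier2*, *Srf*, *Ier3* and *Ier5*, and the muscles of *Ier3* and *Ier5* overlapped. *Egr3*, *Egr2*, *Nab1* and *Nab2* came last, between 9.56 and 6.81 TPM on average, and each overlapped with its neighbour. With *Uba1* siRNAs the first 5 genes kept their places without overlap between neighbours. Below them came *Nab1* (7.18 TPM), *Nab2* (5.45), *Egr3* (5.23) and *Egr2* (4.65), again each overlapping with the next. The corepressor mRNAs thus stood above *Egr2* and *Egr3* on average, a change of order that follows the choice of *Egr2* and *Egr3* for lower values.

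The values differed between muscles of the same group. *Egr1*, *Egr2*, *Egr3* and *Ier2* were highest in NT replicate 2, and 24 of 38 other immediate-early genes tested were also highest in that muscle. *Egr1*, *Egr2*, *Egr3*, *Ier2* and *Ier3* were lowest in *Uba1* replicate 3, where the median of those 38 genes was 0.79 below the NT mean on the log2 scale (-0.79), against -0.60, -0.45 and -0.23 in *Uba1* replicates 1, 2 and 4. The highest *Uba1* mRNA with *Uba1* siRNAs, 23.11 TPM, was in replicate 4, where *Egr1*, *Egr3*, *Ier2* and *Ier3* were above their NT leg. The lowest, 6.768 TPM, was in replicate 2, which was not the muscle with the lowest value of *Egr1*, *Egr2* or *Egr3*. The part of these differences between muscles in the results was not tested.

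*Egr1* followed *Ier2* closely across muscles, with a Pearson correlation of log2 values within groups of 0.93, and *Egr2* did so with 0.91. Within groups *Egr1* had correlations of 0.81 with *Egr2*, 0.84 with *Ier3*, -0.63 with *Nab1* and -0.45 with *Srf*, while *Nab1* and *Nab2* had 0.84 with each other. The genes most like each EGR gene over the 8 muscles included the further immediate-early genes *Junb*, *Fos*, *Fosb*, *Klf4*, *Arc*, *Jund* and *Nr4a2*. For *Egr1* they were *Junb* (r = 0.981), *Fos* (0.971), *Myh6* (0.959), *Fosb* (0.957) and *Pold2* (0.949), of which *Junb*, *Fos* and *Fosb* encode subunits of the AP-1 factor. For *Egr2* they were *Ctla2a* (0.961), *Stc1* (0.953), *Klf4* (0.951), *Arc* (0.949) and *Jund* (0.940). For *Egr3* they were *Apold1* (0.961), *Myh13* (0.953), *Nr4a2* (0.942), *Nfkbiz* (0.941) and *Sik1* (0.940). After removal of the 2 muscles farthest from the median of the EGR gene, *Junb* still had r = 0.972 with *Egr1*, whereas *Apold1* had 0.699 with *Egr3* and *Ctla2a* 0.785 with *Egr2*. These 8 muscles come from 4 mice and include the difference between the groups, which the choice of *Egr2* and *Egr3* also used, so the correlations carry no test.

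The genes that act before and after these factors were summarised by lists. The lists were chosen with earlier results of these data known, so their counts against all genes are a description. Of 40 listed immediate-early genes outside the 9, 32 of 38 tested were lower with *Uba1* siRNAs, with a median log2FC of -0.53 against 0.11 for all genes. At an unadjusted p under 0.05, 20 of 38 were lower and 2 higher, against 1.98% and 16% of all genes, and 11 were lower without overlap between groups, against 1.01% of all genes. None passed the adjusted p (limma). With the replicate block *Atf3*, *Myc* and *Maff* did, against 0.304% of all genes, and 5 of 38 passed with the block and median-ratio scaling, as did 69 of all 11530 genes toward lower values. In the unpaired fit without *Uba1* replicate 4, 8 of 38 passed toward lower values, as did 35 of all 11530 genes tested. *Atf3*, a stress-induced bZIP factor, went from 116 ± 35.1 to 25.4 ± 14.1 TPM (SD, n = 4 muscles each), a log2FC of -2.23 (SE 0.337, limma adjusted p = 0.0575, and 0.00663 with the replicate block, within a range of 0.00643 to 0.23 over the alternatives). The nuclear receptor gene *Nr4a3* had a log2FC of -1.49 (SE 0.418, limma adjusted p = 0.166) and *Csrnp1* of -1.45 (SE 0.358, limma adjusted p = 0.147). *Fos* had -0.43 and *Junb* -0.54, close to the -0.43 of *Egr1*. *Ier5l*, the paralog of *Ier5*, had -0.06. Their median was -0.64 with median-ratio scaling.

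Genes that transmit growth factor signals to SRF were centred near the median of all genes. Of 18 genes of the ERK cascade, 3 were lower and 15 higher (median log2FC 0.09), whereas 11 were lower with median-ratio scaling (median -0.03). None passed the adjusted p (limma). At an unadjusted p under 0.05, 4 of 18 were higher, against 16% of all genes, and with median-ratio scaling 0 were higher and 1 lower. With each muscle left out the median of the 18 genes ranged from 0.05 to 0.12. It was 0.05 without *Uba1* replicate 1 (5 lower) or 3 (6 lower), and 0.12 without *Uba1* replicate 2 (4 lower) or 4 (2 lower). *Sos2* had a log2FC of 0.29 (limma adjusted p = 0.182) and *Sos1*, a guanine exchange factor for RAS like *Sos2*, of 0.26 (limma adjusted p = 0.157), while the ribosomal S6 kinase gene *Rps6ka3* had 0.25 (limma adjusted p = 0.328). Of 5 SRF cofactor genes tested, 1 was lower and 4 higher (median 0.08), which turned to 4 lower and 1 higher with median-ratio scaling (median -0.03), and 0 passed even at an unadjusted p under 0.05. *Elk1* and *Elk3* had a log2FC of 0.10 each and *Mrtfa* of -0.09. Without NT replicate 4 or *Uba1* replicate 3 the median of the cofactor genes was 0.03. Of 15 ligand and receptor genes tested, 14 were higher (median 0.18; 9 with median-ratio scaling, median 0.06) and none passed the adjusted p. *Hbegf*, which encodes a ligand of the EGF receptor, was the exception, with 14.5 ± 3.52 and 9.52 ± 1.72 TPM (SD, n = 4 muscles each) and a log2FC of -0.54 (limma adjusted p = 0.202). *Igf1* had 0.44 (limma adjusted p = 0.393) and *Fgf2* 0.34 (limma adjusted p = 0.208). With each muscle left out the median of the 15 ligand and receptor genes ranged from 0.10 to 0.21. The lowest came without *Uba1* replicate 3 (5 lower), and the highest without NT replicate 3 (1 lower) or *Uba1* replicate 4 (2 lower).

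Known targets were mixed. Of 17 EGR target genes tested, a list that includes *Nab2* and shares genes with the lists above, 10 were lower and 7 higher (median log2FC -0.03, -0.14 with median-ratio scaling, and between -0.15 without *Uba1* replicate 3 and 0.03 without NT replicate 3 or *Uba1* replicate 4). *Icam1*, an adhesion molecule gene that NF-kB also controls, was the 1 of 17 to pass (log2FC -1.73, SE 0.176, limma adjusted p = 0.0128). It fell from 15.9 ± 2.52 to 4.17 ± 1.27 TPM (SD, n = 4 muscles each). Toward lower values 3 of all 11530 genes passed (0.026%), *Icam1* among them. This list too was chosen with earlier results of these data known, so its counts against all genes are a description. At an unadjusted p under 0.05, 6 of the 17 were lower, 4 of them with a log2FC under -0.58, and 2 higher, against 1.98%, 0.833% and 16% of all genes. With each muscle left out 3 to 5 were lower at this p, and 3 without NT replicate 2 or NT replicate 4. *Icam1* passed in 11 of 16 alternatives and did not without NT replicate 2 (limma adjusted p = 0.0575), NT replicate 4 (0.0596), *Uba1* replicate 1 (0.105) or *Uba1* replicate 3 (0.0758), or without a filter (0.0552). *Ptgs2*, the cyclooxygenase COX-2, had a log2FC of -1.03 (limma adjusted p = 0.184). Of 25 cytoskeletal SRF targets, 18 were lower and 7 higher (median -0.09, and -0.21 with median-ratio scaling), and none passed the adjusted p. At an unadjusted p under 0.05, 3 were lower, against 1.98% of all genes, and this count was 9 with median-ratio scaling, when 712 of all 11530 genes were lower, and 13 with the replicate block as well, when 1011 were. With each muscle left out it ranged from 2 without NT replicate 2 to 6 without NT replicate 4, and the median from -0.18 without NT replicate 4 to -0.05 without NT replicate 1. Cardiac actin *Actc1* had a log2FC of -0.81 with a standard error of 0.691 (limma adjusted p = 0.525), calponin *Cnn1* of -0.48 (limma adjusted p = 0.173) and *Actg1*, cytoplasmic actin, of -0.34 (limma adjusted p = 0.184). The median of this list was nearer 0 than that of the immediate-early genes, and the difference between the lists was not tested.

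**Figure D4:**
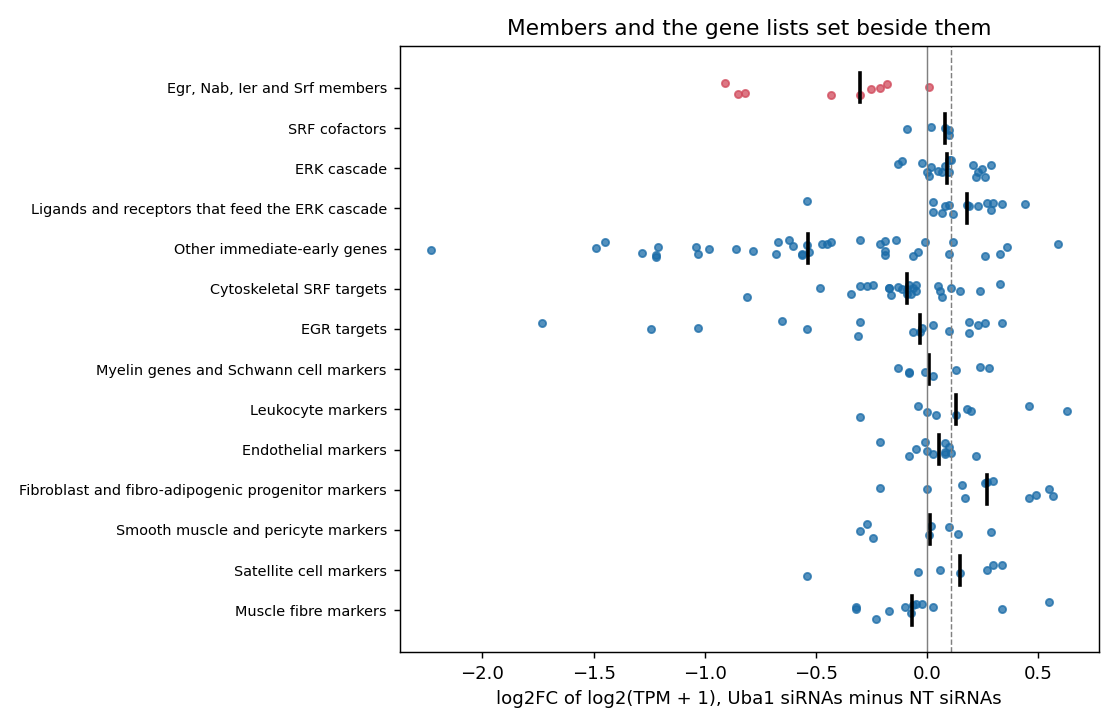
log2FC of the 9 genes (red) and of each list (blue points are genes, black bars are medians). The dashed line marks the median of all genes tested, 0.11. The other immediate-early genes, with a median of -0.53, lie furthest to the left, and the medians of the ERK cascade (0.09) and SRF cofactors (0.08) lie next to the dashed line, with muscle fibre markers (-0.06) to its left and fibroblast markers (0.27) to its right.

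Whole muscle holds other cells, and fewer cells of a type cannot be told apart from less RNA per cell. The marker lists were therefore set beside the EGR genes, and no list contained a gene listed at 0 in all muscles. For Schwann cells and myelin, the setting of *Egr2* in nerve, 8 of 14 genes were tested, of which 4 were lower (median log2FC 0.01, and -0.09 with median-ratio scaling). Their summed level was 84.26 to 117.6 TPM with NT siRNAs and 65.15 to 130.7 TPM with *Uba1* siRNAs. *Sox10* and *Mag* were among the genes too low to be tested. For leukocytes 2 of 9 tested genes were lower (median 0.13), and 4 with median-ratio scaling (median 0.02). With each muscle left out their median ranged from -0.11 without *Uba1* replicate 3 (7 lower) to 0.34 without NT replicate 3 (1 lower). The sums were 133.5 to 357.5 and 142.9 to 414.6 TPM, with *Ptprc* and the lymphocyte genes below the filter. Endothelial markers had 5 of 12 lower (median 0.05), 11 with median-ratio scaling (median -0.07), and with each muscle left out from 1 without NT replicate 1 (median 0.12) to 6 without NT replicate 4 (median -0.00) or *Uba1* replicate 2 (median 0.02). They had sums of 194.2 to 276 and 218.7 to 261.5 TPM.

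Fibroblast and fibro-adipogenic progenitor markers were higher in 10 of 11 genes (median log2FC 0.27, and 0.16 with median-ratio scaling), when 18.2% of all genes were lower. Their median ranged from 0.10 without *Uba1* replicate 3 to 0.48 without NT replicate 3, with sums of 633 to 1261 TPM with NT siRNAs and 794.5 to 1565 TPM with *Uba1* siRNAs. *Col1a1*, *Col1a2* and *Lum* had log2FC of 0.57, 0.55 and 0.49, and none passed the adjusted p (limma). Satellite cell markers had 2 of 7 genes lower (median 0.15, sums of 64.93 to 82.59 and 74.94 to 106.6 TPM), with *Vcam1* at -0.54, *Myod1* at 0.34 and *Cdh15* at 0.30. Smooth muscle and pericyte markers had 3 of 8 lower (median 0.01, and -0.10 with median-ratio scaling, sums of 253.6 to 398.3 and 284 to 308.5 TPM). Muscle fibre markers had 9 of 12 lower (median -0.06), and their median was 0.00 with quantile normalization and -0.19 with median-ratio scaling. With each muscle left out it ranged from -0.11 without *Uba1* replicate 3 to -0.01 without *Uba1* replicate 2. In these marker lists none passed the adjusted p in the unpaired fit, and 1 satellite cell gene was lower past it with the replicate block and median-ratio scaling. Leaving out single muscles turned the sign of the small medians of the myelin, smooth muscle and satellite cell lists. Their part in the values of the EGR and IER genes was not tested.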

How the data were processed

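Total RNA of 8 TA muscles was sequenced as paired-end Illumina reads. After trimming, the authors aligned them with CLC Genomics Workbench to GRCm39 (mm39) and deposited TPM per gene symbol; the annotation is not given in the sources used here. TPM keep no read total, so the depth is unknown, no counting interval is given, and the number of muscles limits the precision. Genes reaching 1 TPM in 4 or more muscles were kept (11530 of 41709). log2(TPM + 1) was fitted with limma 3.58.1 (R 4.3.3; lmFit, eBayes with trend) without covariates, and p-values were adjusted by Benjamini-Hochberg. The fit was checked on simulated data. Exact permutation tests over 70 arrangements cannot give a two-sided p below 0.0286.

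The replicate numbers pair the muscles because equal numbers are legs of the same mouse. Correlations of their deviations from the group means were -0.000368, 0.201, 0.584 and 0.537 for replicates 1 to 4. The replicate block was an alternative, as were another pseudocount, other filters and scalings, the exact Kruskal-Wallis test and leaving out each muscle.

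The genes and lists were chosen with earlier results of these data known. Named were all 9 genes, *Uba1*, up to 3 genes per list with the largest absolute log2FC or past the adjusted p, and the 5 genes most correlated with each EGR gene; a gene that this rule names is not reported here. *Ckm*, *Fos*, *Junb*, *Ier5l*, *Myc*, *Maff* and the untested marker genes were named after their values were seen. Gene positions come from the GENCODE annotation of GRCm39 and promoter windows from RefSeq.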

Additional observations from a re-analysis of the deposited data

Results flagged for a closer look

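In 18 groups of 4 muscles (9 genes in 2 groups), Dixon's criterion marked 2 muscles as standing apart from the other 3 of their group, where 0.9 would be marked by chance. *Egr2* in NT replicate 2 was at 14.98 TPM, with a gap to the next muscle that took 0.94 of the group's range. *Ier3* in *Uba1* replicate 4 was at 33.28 TPM, with a gap of 0.9 of the range.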

How the results depend on the processing

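Of the 7 genes other than *Egr2* and *Egr3*, 6 were lower under all 16 alternatives fitted, as were 8.78% of all genes tested. *Nab1* was not: its log2FC was -0.10 with median-ratio scaling, with quantile normalization and with both the replicate block and median-ratio scaling, and it ranged from -0.05 to 0.08 with each muscle left out. The number of the 7 genes past the adjusted p of 0.05 was 0 with the replicate block and 1 (*Ier5*) with the replicate block and median-ratio scaling. The count with a log2FC under -0.58 and an unadjusted p under 0.05 was 0 by the exact Kruskal-Wallis test, and ranged from 1 to 2 with each muscle left out (*Egr1* joined *Ier5* without *Uba1* replicate 4). By the Kruskal-Wallis test 1342 of all genes had an unadjusted p under 0.05 and 0 passed the adjustment (smallest adjusted p 0.245). With 4 muscles per group its exact p cannot fall below 0.0286, so it cannot decide on single genes after an adjustment over 11530 genes. The cause of the other differences between the alternatives was not tested. Over all genes, the replicate block raised the calls at an adjusted p of 0.05 from 3 lower and 0 higher to 35 lower and 22 higher, and median-ratio scaling gave 22 lower and 1 higher.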
